A study of Mus musculus with 7 samples.

Results

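The IL-18 and IL-12 receptor genes are 7 of the 27514 genes shared by all 7 count matrices, chosen by symbol: Il18r1 and Il18rap (the chains of the IL-18 receptor), Il12rb1 and Il12rb2 (the chains of the IL-12 receptor), Stat4 (the transcription factor that IL-12 activates), and Ifngr1 and Ifngr2 (the chains of the interferon gamma receptor). Each symbol matched 1 row in all 7 matrices. T cells were profiled one by one with 10x Chromium 3′ chemistry, from the spleens of male C57BL/6 mice aged 8 weeks, and in every group the gate kept CD3+ TCRαβ+ cells and removed NK1.1+ and TCRγδ+ cells. Activated DNT cells (2 libraries) were naive DNT cells stimulated in culture for 3 days with antibody to CD3 and CD28 plus 20 ng/ml IL-2. Naive DNT cells (double-negative T cells, 2 libraries) came straight from the spleen as CD4- CD8- cells that bound neither αGal-CD1d nor LPC-CD1d, tetramers that mark NKT cells. A single library stands for each of the CD4 group (CD4+ CD8-), the CD8 group (CD4- CD8+) and TCRab, the TCRαβ+ gate before any choice by CD4 or CD8. Kit v2 served for CD4, CD8, TCRab and replicate 1 of the 2 DNT groups, and kit v3 for replicate 2 of those groups. The number of mice behind a library is not given in the labels.

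IL-18 and IL-12 are products of dendritic cells and macrophages that act together on T and NK cells to raise interferon gamma. IL-18 binds IL18R1, which recruits IL18RAP and signals through MyD88 and IRAK kinases to NF-kB. IL-12 binds IL12RB1 with IL12RB2, which activates TYK2, JAK2 and STAT4, while IL12RB1 also serves the IL-23 receptor. Interferon gamma binds IFNGR1 and signals through IFNGR2 and the kinases JAK1 and JAK2, and T cells that make the cytokine are known to limit IFNGR2.

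The libraries held 1549 to 6728 cells after filtering, 28101 in all, with 17255173 to 53342795 UMIs (unique molecules, the counts used here) over the shared genes and a median of 3966 to 15724 UMIs per cell. Pairs of libraries shared 0 to 36 cell barcodes. All 3 CD3 genes were detected in every library, with a summed level of 1479 to 2771 CPM (UMI counts scaled to a common library total), and Cd4, Cd8a and Cd8b1 summed to 5.82 and 5.91 CPM in activated DNT and 16.3 and 5.61 CPM in naive DNT, against 159.5 in CD4 and 1798 in CD8. Markers of B cells summed to 9.92 and 13.3 CPM in activated DNT, 26.4 and 102.8 in naive DNT and 4.43 to 21.5 in CD4, CD8 and TCRab. Markers of NK cells summed to 199.2 and 317.7 CPM in activated DNT, 596.3 and 380.9 in naive DNT and 31.3 to 50.6 in CD4, CD8 and TCRab. Fcer1g gave 357.0 and 213.9 CPM of the naive sums, and Ncr1, an NK cell receptor, was at 0.0580 and 1.14 CPM in naive DNT. The rest of this list was also higher in naive DNT than in CD4, CD8 and TCRab. Tyrobp was at 101.0 and 38.7 CPM (3.33 to 17.4 in those 3 libraries) and Klre1 at 64.2 and 58.5 (0.138 to 9.45). Eomes was at 60.6 and 56.0 CPM (3.23 to 23.3) and Klrb1c at 13.5 and 12.7 (0.277 to 0.916). Markers of γδ and type 17 T cells summed to 3.52 and 13.1 CPM in activated DNT, 12.2 and 60.3 in naive DNT and at most 1.21 elsewhere. Haemoglobin genes summed to 0 and 0.436 CPM in activated DNT, 3691 and 816.4 in naive DNT and 2149 to 2830 elsewhere. Myeloid markers summed to 163.8 and 164.1 CPM in activated DNT, 510.6 and 192.2 in naive DNT and 88.3 to 185.2 elsewhere. Fits without cells that carry B cell, myeloid or red cell markers are given in the closing section. Beyond that, the part of any such cells in the values below was not tested. In naive DNT the kit v3 library had 2.09 to 3.78 times the CPM of the kit v2 library for the 7 genes, and in activated DNT 1.12 to 4.77 times, so the spread between replicates holds the kit as well as the culture or mouse.

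Il18r1 (ENSMUSG00000026070), the chain that binds IL-18, was the member that stood highest in naive DNT relative to all other libraries. Its level was 4.77 and 13.3 CPM in activated DNT replicates 1 and 2, 58.9 and 152.3 CPM in naive DNT replicates 1 and 2, 13.2 CPM in CD4, 19.9 CPM in CD8 and 15.99 CPM in TCRab. Both naive libraries lay above all 5 others, and activated DNT replicate 1 was the lowest of all. The fall in activated DNT was 12.3-fold within kit v2 and 11.5-fold within kit v3, and the fit across libraries gave a log2 fold change of −3.68 ± 0.54 (SE) with an adjusted p of 0.0115 in edgeR's quasi-likelihood test, 2 against 2 libraries. Kit v3 gave 2.78 times the level of kit v2 in activated DNT and 2.59 times in naive DNT. With cells at an equal depth of 1500 UMIs the fall was smaller (log2 fold change −2.89 ± 0.63, adjusted p = 0.0482, edgeR quasi-likelihood test), and the level in activated replicate 2 was then 2.01 times that over all UMIs.

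Il18rap (ENSMUSG00000026068), the accessory chain without which the receptor does not signal, was likewise highest in the naive DNT libraries. It was at 7.19 and 11.4 CPM in activated DNT replicates 1 and 2, 16.5 and 43.1 CPM in naive DNT replicates 1 and 2, 1.29 CPM in CD4, 5.95 CPM in CD8 and 2.63 CPM in TCRab. Both activated libraries lay above CD4 and TCRab for Il18rap, and that of replicate 1 overlapped CD8 in its counting interval, whereas for Il18r1 activated replicate 1 lay below these 3 libraries and replicate 2, over all UMIs, between CD4 and TCRab. Il18rap fell by 1.75 on the log2 scale in activated DNT (SE 0.42, adjusted p = 0.0429, edgeR quasi-likelihood test), with within-kit differences of −1.20 in kit v2 and −1.92 in kit v3.

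**Figure D1:**
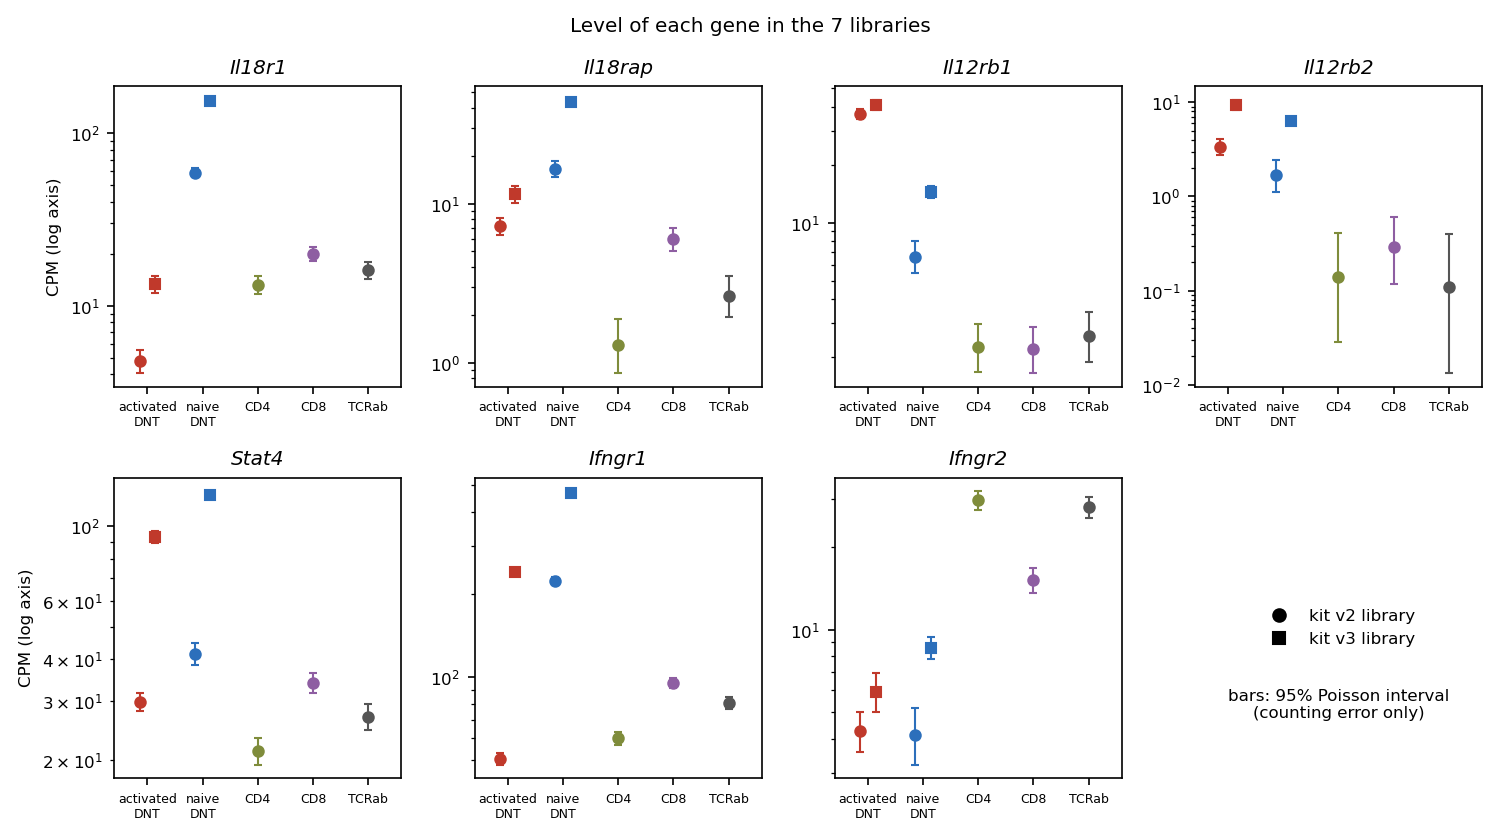
Level of each gene in CPM (vertical log axis) by library, with activated DNT, naive DNT, CD4, CD8 and TCRab from left to right. Circles are kit v2 and squares kit v3 libraries, and bars are 95% Poisson intervals for counting error only. Both naive points of Il18r1 (58.9 and 152.3 CPM) lie above all others, while Ifngr2 is highest in CD4 (29.6 CPM) and TCRab (28.0 CPM).

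Both IL-18 receptor genes lie side by side in the IL-1 receptor gene cluster. On GRCm38 (GENCODE vM21) Il18r1 spans chr1:40465552-40500854 and Il18rap chr1:40515362-40551705, both on the plus strand, 14507 bp apart with 0 annotated genes between them. Il1rl1, the IL-33 receptor gene, ends at 40465415 just before Il18r1. Promoter windows (250 bases before to 50 after a start, RefSeq, GRCm38.p6) were present for 6 of the 7 genes, 9 windows in all. Il12rb1 had none. Windows are shown for Il18r1, Il18rap and Il12rb2. For Il18r1 the window shown is the one that holds the letters marked below, and its windows 1 and 2 held 0. Capitals mark the letters TTCNNNGAA, the core recognised by STAT factors, which reads the same on both strands. The Il18r1 window is the third of its listed starts at chr1:40465756-40466055 on the plus strand, that of Il18rap is chr1:40515112-40515411 on the plus strand, and that of Il12rb2 is chr6:67376139-67376438 on the minus strand.
Il18r1: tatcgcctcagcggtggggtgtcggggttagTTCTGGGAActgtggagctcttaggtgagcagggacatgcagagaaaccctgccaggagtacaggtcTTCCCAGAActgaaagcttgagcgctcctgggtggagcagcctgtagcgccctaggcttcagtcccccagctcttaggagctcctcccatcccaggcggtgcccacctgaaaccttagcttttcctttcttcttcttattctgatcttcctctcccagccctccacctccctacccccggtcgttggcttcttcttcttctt
Il18rap: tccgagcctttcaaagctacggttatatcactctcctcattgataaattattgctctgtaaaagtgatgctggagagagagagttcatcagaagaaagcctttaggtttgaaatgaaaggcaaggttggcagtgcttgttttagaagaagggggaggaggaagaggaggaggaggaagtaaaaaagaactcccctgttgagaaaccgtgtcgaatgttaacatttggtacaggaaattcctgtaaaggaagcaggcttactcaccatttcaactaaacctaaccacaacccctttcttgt
Il12rb2: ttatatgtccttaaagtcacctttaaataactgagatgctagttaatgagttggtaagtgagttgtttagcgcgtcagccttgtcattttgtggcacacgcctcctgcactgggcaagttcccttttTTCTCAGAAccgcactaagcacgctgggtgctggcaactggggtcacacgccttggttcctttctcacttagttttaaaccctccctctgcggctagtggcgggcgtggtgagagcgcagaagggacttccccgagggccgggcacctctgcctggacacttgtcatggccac
The Il18r1 window held 2 such stretches and the Il12rb2 window 1, and the other 7 windows of the members held 0. Of 32851 RefSeq windows of this length, 8.30% held the STAT letters. TGANTCA (AP-1, the same on both strands) and GGTGTGA (T-box, searched on both strands) occurred in 0 of the members' 9 windows and in 7.81% and 3.98% of all windows. The matched motifs did not overlap another searched motif, and a match in these letters is a description and not a binding site.

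Il12rb1 (ENSMUSG00000000791, chr8:70808449-70821424, plus strand), the chain shared by the IL-12 and IL-23 receptors, moved opposite to the IL-18 receptor genes. It stood at 36.6 and 40.9 CPM in activated DNT replicates 1 and 2, 6.66 and 14.5 CPM in naive DNT replicates 1 and 2, 2.26 CPM in CD4, 2.21 CPM in CD8 and 2.57 CPM in TCRab. The activated libraries were the highest and close to each other, and the naive libraries lay above CD4, CD8 and TCRab, which did not differ from one another beyond their counting intervals. Il12rb1 rose in activated DNT by 1.82 ± 0.40 (log2 fold change ± SE, adjusted p = 0.0347, edgeR quasi-likelihood test), with 5.49 times the naive level in kit v2 and 2.83 times in kit v3.

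Il12rb2 (ENSMUSG00000018341), the IL-12 specific chain that carries the STAT4 docking site, was low everywhere and close to absent in CD4, CD8 and TCRab. It was at 3.38 and 9.40 CPM in activated DNT replicates 1 and 2, 1.68 and 6.36 CPM in naive DNT replicates 1 and 2, 0.138 CPM in CD4, 0.291 CPM in CD8 and 0.109 CPM in TCRab, where 3, 7 and 2 UMIs were counted. The activated and naive libraries overlapped, since naive replicate 2 lay above activated replicate 1. The difference did not pass the test (log2 fold change 0.56 ± 0.59, adjusted p = 0.589, edgeR quasi-likelihood test), and the within-kit log2 ratios were 1.01 in kit v2 and 0.56 in kit v3. The 3′ end of Il12rb2 (chr6:67291318-67376188, minus strand) overlaps that of Serbp1 on the opposite strand, an mRNA-binding protein gene at 956.6 and 1128 CPM in activated DNT and 411.9 and 545.9 CPM in naive DNT. Whether counting used the strand is not given in the sources used here, and Serbp1 was at 466.2 CPM in CD4, where Il12rb2 had 3 UMIs.

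Stat4 (ENSMUSG00000062939, chr1:51987148-52107189, plus strand) was at 29.8 and 93.1 CPM in activated DNT replicates 1 and 2, 41.6 and 124.5 CPM in naive DNT replicates 1 and 2, 21.3 CPM in CD4, 34.1 CPM in CD8 and 27.0 CPM in TCRab. Activated and naive libraries overlapped, and the kits differed about 3-fold in both groups. Its log2 fold change was −0.56 ± 0.54 (adjusted p = 0.547, edgeR quasi-likelihood test), and the within-kit log2 ratios were −0.48 and −0.42. The 3′ end of Stat4 overlaps Gm28177 (chr1:52077261-52156087), a transcript gene on the same strand that was not among the shared genes. Whether this overlap affected the Stat4 counts was not tested.

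Ifngr1 (ENSMUSG00000020009, chr10:19591949-19610229, plus strand), the chain that binds interferon gamma, was at 50.3 and 240.2 CPM in activated DNT replicates 1 and 2, 223.4 and 468.6 CPM in naive DNT replicates 1 and 2, 59.8 CPM in CD4, 95.2 CPM in CD8 and 80.3 CPM in TCRab. The activated library of kit v3 lay just above the naive library of kit v2, so the groups overlapped although each kit had its activated library lower, 4.44-fold in kit v2 and 1.95-fold in kit v3. Without a block the log2 fold change was −1.46 ± 0.65 (adjusted p = 0.192, edgeR quasi-likelihood test), and once the kit, marked by the replicate number, entered the model as a block it was −1.69 ± 0.33 (adjusted p = 0.00456), which passed. Ifngr2 (ENSMUSG00000022965, chr16:91547072-91565623, plus strand), the signalling chain, was at 4.25 and 5.91 CPM in activated DNT replicates 1 and 2, 4.11 and 8.59 CPM in naive DNT replicates 1 and 2, 29.6 CPM in CD4, 15.1 CPM in CD8 and 28.0 CPM in TCRab. All 4 DNT libraries lay below the other 3, and activated and naive DNT overlapped (log2 fold change −0.41 ± 0.42, adjusted p = 0.578, edgeR quasi-likelihood test).

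Of the 7 members, all tested, 1 was higher in activated DNT (Il12rb1), 2 were lower (Il18r1 and Il18rap) and 4 did not pass. Over all 12325 genes tested, 5.32% were higher and 5.06% lower, 656 and 624 genes, and 53 and 12 with library totals in place of TMM. The members' median log2 fold change was −0.56, against −0.05 over all genes tested. The block raised the calls over all genes to 4894 of 12325, and 4 members then passed. Leaving out 1 library changed several calls. Without activated replicate 1 the adjusted p of Il18rap was 0.108, without naive replicate 1 it was 0.0546 and without naive replicate 2 it was 0.198. Il12rb1 stood at an adjusted p of 0.171 without naive replicate 1 and 0.0716 without naive replicate 2, Ifngr1 passed without activated replicate 2 (adjusted p = 0.0377), and the count over all genes was 2074 without activated replicate 2, 548 without naive replicate 1 and 773 without naive replicate 2 (all edgeR quasi-likelihood tests). Il18r1 passed in each of these fits. Over 14 alternative settings the adjusted p was between 9.18e-10 and 0.0874 for Il18r1, which passed in 11, between 0.000672 and 0.214 for Il18rap, which passed in 7, between 0.00061 and 0.298 for Il12rb1, which passed in 8, and between 0.00456 and 0.775 for Ifngr1, which passed in 2.

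**Figure D2:**
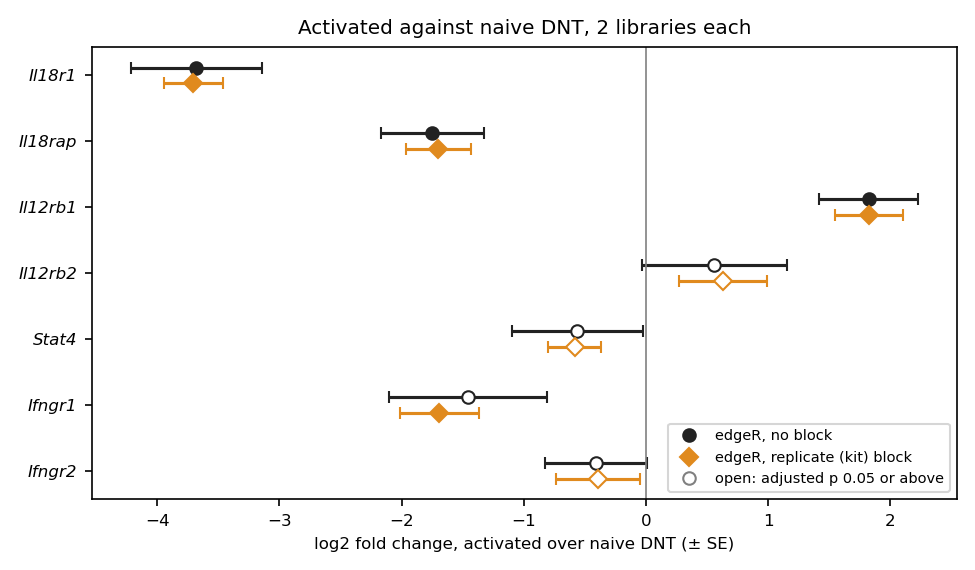
Log2 fold change of each gene, activated over naive DNT (horizontal axis, ± SE), without a block (black circles) and with the kit, given by the replicate number, as a block (orange diamonds). Open symbols have an adjusted p of 0.05 or above. Il18r1 lies at −3.68, Il18rap at −1.75 and Il12rb1 at 1.82, and Ifngr1 is filled with the block.

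Cells of a library differ in depth, and weighting each cell equally changed some levels in activated DNT. With cells thinned to 1500 UMIs, and 0 to 80 shallower cells per library left out, Ifngr1 was at 81.1 and 488.9 CPM in activated DNT and 233.3 and 484.1 CPM in naive DNT, so in kit v3 the activated library no longer lay below the naive one. Thinning raised Ifngr1 to 1.61 and 2.04 times and Il18r1 to 1.33 and 2.01 times its level in activated DNT, while in naive DNT both were at 1.02 to 1.04 times. Shallow activated cells thus held more Ifngr1 per UMI than deep ones, and in replicate 2 more Il18r1. In replicate 1 the thinned Il18r1 level rested on 16 cells with a UMI. Thinning also took Stat4 to 1.19 and 1.62 times and Ifngr2 to 0.876 and 1.61 times in activated DNT, while Il12rb2 was at 0.882 and 0.578 times. Thinned Il18r1 was still lower in activated DNT, at 6.33 and 26.7 CPM against 60.2 and 157.5 CPM in naive DNT. Activated replicate 2 was then above CD4 (13.6 CPM), CD8 (16.1 CPM) and TCRab (16.9 CPM).

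At this equal depth the share of cells with at least 1 Il18r1 UMI was 0.893% and 3.73% in activated DNT, 8.41% and 19.2% in naive DNT, 2.02% in CD4, 2.33% in CD8 and 2.37% in TCRab. Without thinning these shares were 7.48% and 15.2% in activated DNT, 20.2% and 54.0% in naive DNT, 4.99% in CD4, 9.24% in CD8 and 5.96% in TCRab. B-like cells were set beside the other cells in the only library with enough of them, and whether they lack these receptors was not tested. In naive DNT replicate 2, 5 of 71 such cells (7.04%, 95% Clopper-Pearson interval 2.33% to 15.7%, median 4838 UMIs) had an Il18r1 UMI, against 54.5% of the other cells (median 7540 UMIs). For Il18rap, Il12rb1 and Il12rb2, 0 of 71 B-like cells had a UMI, against 26.3%, 9.31% and 4.70% of the other cells. An approximate upper limit for 0 of 71 was 4.23%, and the 95% Clopper-Pearson interval ended at 5.06%. The Il12rb2 share of the other cells lay between these limits, so it was not clearly apart from that of the B-like cells. Stat4 was seen in 32.4% of B-like cells and 56.4% of the others, and Ifngr1 in 39.4% and 87.3%. Ifngr2 ran the other way, at 26.8% of B-like cells and 5.32% of the others.

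The equal-depth shares of Il12rb1 were 4.36% and 5.70% in activated DNT, 1.25% and 1.94% in naive DNT and 0.258% to 0.376% in the other 3 libraries. Il18rap was seen in 1.40% and 1.97% of activated and 2.27% and 6.03% of naive DNT cells. The difference between kits reappears here, since Ifngr1 was detected in 9.83% and 36.6% of activated and 28.1% and 47.5% of naive DNT cells. Ifngr2 was detected in 0.558% and 1.29% of activated and 0.499% and 1.37% of naive DNT cells, against 4.50% in CD4, 2.52% in CD8 and 4.63% in TCRab. Intervals and limits on counts cover counting error only.

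**Figure D3:**
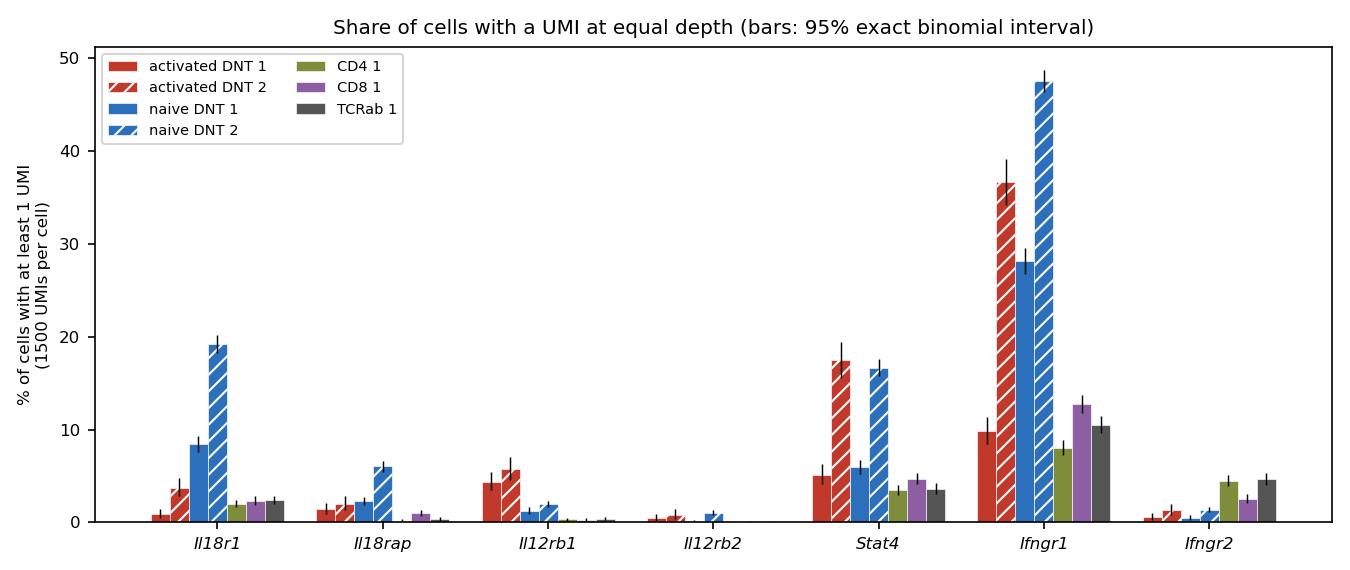
Share of cells with at least 1 UMI of each gene after thinning each cell to 1500 UMIs (vertical axis, percent), by library. Hatched bars are kit v3 and black lines are 95% exact binomial intervals. Il18r1 reaches 8.41% and 19.2% in naive DNT and at most 3.73% elsewhere, and Ifngr2 is above 2% in CD4, CD8 and TCRab alone.

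Naive DNT was compared with CD4, CD8 and TCRab by size, without a test, because those groups have 1 library. To count, a gene had to be 2-fold or more from the other library in both naive libraries, on the same side, and all libraries on the higher side had to reach 20 CPM. Against CD4, 5.51% of 4031 eligible genes were higher and 1.34% lower by this rule. Against CD8 the shares were 4.87% and 0.532% of 3944 genes, and against TCRab 4.16% and 1.18% of 4082 genes. On totals scaled with TMM, which removes shifts common to most genes, the split was 156 higher and 110 lower against CD4 (222 and 54 unscaled), 113 and 60 against CD8 (192 and 21) and 127 and 86 against TCRab (170 and 48). Il18r1 and Ifngr1 were higher in naive DNT in all 3 comparisons. Ifngr2 was lower against CD4 and against TCRab.

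Il18r1 in naive replicates 1 and 2 was 4.48 and 11.6 times its level in CD4, 2.97 and 7.67 times that in CD8 and 3.68 and 9.53 times that in TCRab. Ifngr1 was 3.73 and 7.83 times its level in CD4, 2.35 and 4.92 times that in CD8 and 2.78 and 5.84 times that in TCRab. Both genes thus passed with the kit v2 naive library alone, which shares its kit with these 3 libraries. The median eligible gene of naive replicates 1 and 2 lay 0.03 and 0.30 (log2) above CD4, 0.16 and 0.44 above CD8 and −0.03 and 0.22 from TCRab, so part of the excess of replicate 2 is common to many genes. On TMM-scaled totals Ifngr1 against CD8 no longer passed.

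Il18rap and Il12rb1 were below 20 CPM in naive replicate 1 and passed, as higher in all 3 comparisons, when 5 CPM was enough. Il18rap in naive replicates 1 and 2 was 12.8 and 33.4 times its level in CD4, but 2.77 and 7.24 times that in CD8. Within the single-positive cells Il18rap was 4.61 times higher in CD8 than in CD4 (95% counting interval 3.06 to 7.18), a wider gap than the 1.51 times of Il18r1 (1.30 to 1.76). For Il12rb1 the excess of naive replicates 1 and 2 was 2.95 and 6.401 times the CD4 level, 3.02 and 6.56 times the CD8 level and 2.59 and 5.62 times the TCRab level. Stat4 was 1.96 and 5.85 times its CD4 level, just short of the rule in kit v2, and 1.22 and 3.65 times its CD8 level. Il12rb2 against CD4 was at 12.1 times in naive replicate 1 (counting interval 3.76 to 62.3) and 45.9 times in replicate 2 (15.6 to 223.7), on 3 UMIs in CD4.

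Ifngr2 in CD4 was 7.20 and 3.45 times its level in naive replicates 1 and 2, and in TCRab 6.80 and 3.26 times. Against CD8 the ratios were 3.67 and 1.76, with 15.1 CPM in CD8, so it missed both parts of the rule. Inside the TCRab library, in classes drawn after its values were seen, Ifngr2 was at 30.7 CPM in 710 cells with a Cd4 UMI and no Cd8 UMI and at 24.7 CPM in 1849 cells with a Cd8 UMI and no Cd4 UMI. Their 95% Poisson intervals, 24.6 to 37.7 and 21.4 to 28.3 CPM, overlapped. In the 1141 cells with neither a Cd4 nor a Cd8 UMI it was at 35.0 CPM (29.5 to 41.2). The interval of the Cd8 class lay above that of the CD8 library (13.6 to 16.8 CPM). These classes are not lineages. Cells with UMIs of both Cd4 and Cd8 are in none of them, and cells of the neither class had a median of 3529 UMIs. In the CD4 library Cd4 was at 137.0 CPM and Cd8b1 at 22.3 CPM. A CD4 cell can thus lack a Cd4 UMI or carry a Cd8 UMI, and how many did was not tested.

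The IL-18 receptor needs both chains in 1 cell. In 6 of 7 libraries both were detected together beyond the number expected within bins of cell depth, an excess not seen in naive DNT at equal depth. In each library the number of cells with a UMI of both Il18r1 and Il18rap was set against the number expected if the genes were independent within 10 bins of cell depth. Activated DNT had 43 such cells against 17.8 expected in replicate 1 (2.41 times, 95% Poisson interval 1.75 to 3.25) and 65 against 32.1 in replicate 2 (2.02 times, 1.56 to 2.58). Naive DNT had 73 against 59.7 in replicate 1 (1.22 times, 0.959 to 1.54) and 1117 against 998.0 in replicate 2 (1.12 times, 1.05 to 1.19). The ratio was larger in both activated libraries, where Il18r1 was found in fewer cells, and a gene found in a large share of cells, such as Il18r1 in naive replicate 2 (54.0%), leaves little room for a high ratio, so the ratios of the groups were not compared by a test. Without cells above 3 times the median UMIs, the intervals of activated replicate 2 (1.40 to 2.80) and naive replicate 1 (0.959 to 1.54) overlapped.

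In CD4, 10 cells held both against 1.52 expected (6.59 times, 3.16 to 12.1), in CD8 30 against 15.3 (1.96 times, 1.32 to 2.79) and in TCRab 10 against 3.68 (2.72 times, 1.30 to 4.998). Of the cells with an Il18rap UMI, 21.3% and 34.4% also had Il18r1 in activated DNT, 27.7% and 63.9% in naive DNT, 40.0% in CD4, 22.4% in CD8 and 23.8% in TCRab. These shares rise with depth per cell and with the level of Il18r1 and are given as counted. Thinned to 1500 UMIs, 0 to 79 cells per library held both genes. There the ratio was 5.54 in activated replicate 2 on 6 cells, 0.914 and 1.03 in naive DNT on 7 and 79 cells, and no such cell was left in activated replicate 1. The small excess of naive replicate 2 was thus not seen at equal depth. The few cells of activated DNT allowed no check of its excess or of the order.

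Il18r1 and Il12rb1 were found together at 1.09 and 1.02 times the expected number in activated DNT, and 1.73 and 1.27 times in naive DNT (intervals 1.24 to 2.35 and 1.15 to 1.39). Here, over all UMIs, the excess was on the naive side, and whether it holds at equal depth is not reported here. Il18r1 with Stat4 was at 0.912 and 1.08 in activated DNT and 1.07 and 1.01 in naive DNT, and the chains Il12rb1 and Il12rb2 of the IL-12 receptor were at 0.938 and 0.982 in activated DNT and 1.28 and 0.798 in naive DNT, all with intervals that hold 1. Ifngr1 with Ifngr2 was likewise between 0.868 and 1.15 in all 7 libraries.

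**Figure D4:**
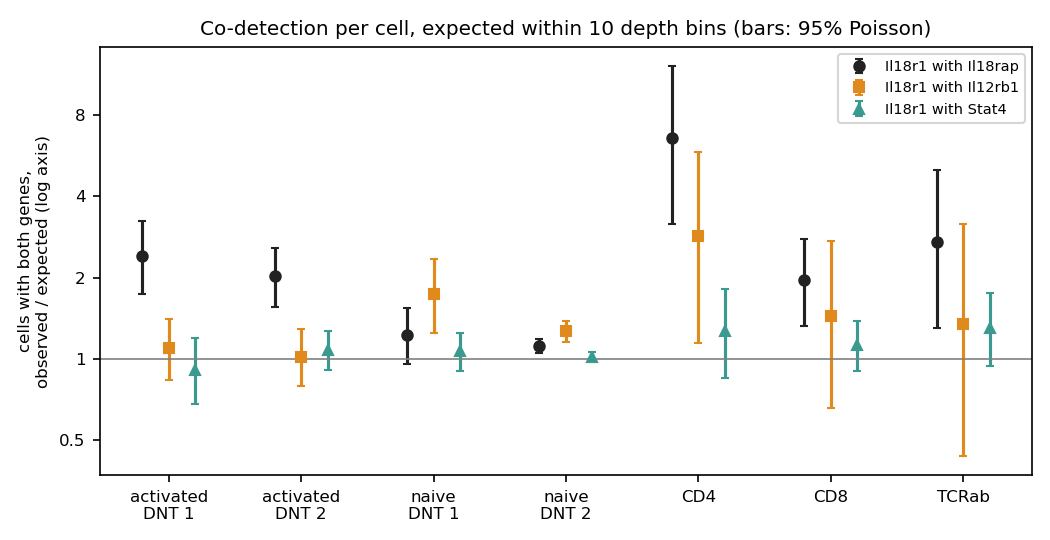
Cells with a UMI of both genes over the number expected within 10 depth bins (vertical log axis) for 3 pairs in the 7 libraries, with 95% Poisson intervals. The line at 1 marks independence. Il18r1 with Il18rap lies at 2.41 and 2.02 in activated DNT and 1.22 and 1.12 in naive DNT.

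Zbtb16 encodes PLZF, a transcription factor of innate-like T cells such as NKT cells. Over all UMIs, naive DNT cells with a UMI of Zbtb16 differed from the others in most members. In naive replicates 1 and 2, 55 and 755 cells had such a UMI. Il12rb1 in these cells was at 30.1 and 50.98 CPM, against 6.25 and 8.81 CPM in cells without one, which is 4.81 and 5.79 times. Il18r1 was at 170.6 and 303.8 CPM with Zbtb16 and 56.9 and 128.9 CPM without (3.00 and 2.36 times), and Ifngr2 was 3.39 and 3.14 times as high with Zbtb16. Il18rap was not raised with Il18r1 in these cells, at 1.01 and 1.09 times. Stat4 was at 0.478 and 0.468 times and Ifngr1 at 0.595 and 0.581 times, and in replicate 1 the intervals of Stat4 (0.175 to 1.05) and Ifngr2 (0.896 to 9.08) held 1. Il12rb2 had 0 UMIs in the 55 cells of replicate 1 and was at 0.581 times in replicate 2. Cells with a UMI of Ccr6, a chemokine receptor, gave ratios of the same sign for Il18r1 (3.82 and 2.93 times) and Il12rb1 (8.01 and 5.63 times). All of these naive ratios are over all UMIs. At equal depth only the Zbtb16 ratio of Il12rb1 is given below, and whether the rest hold there is not reported here.

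In activated DNT the same split held for Il12rb1 and not for Il18r1. The 151 and 193 cells with a Zbtb16 UMI in activated replicates 1 and 2 had Il12rb1 at 78.4 and 145.2 CPM, against 27.8 and 23.3 CPM in cells without (2.82 and 6.23 times), and held 468 of 1258 and 529 of 1032 Il12rb1 UMIs. Il18r1 was at 0.776 and 0.803 times with intervals that hold 1, Il18rap at 0.465 and 0.235 times and Stat4 at 0.655 and 0.231 times. Among cells without a Zbtb16 UMI, Il12rb1 was still higher in activated DNT, at 27.8 and 23.3 CPM against 6.25 and 8.81 CPM in naive DNT. Cells with a Zbtb16 UMI were deeper, with a median of 38666 and 12802 UMIs in activated DNT against 14770 and 8859.5 in cells without. Thinned to 1500 UMIs, the Il12rb1 ratio was 2.51 in activated replicate 2 on 6 UMIs (0.896 to 5.68) and 4.38 in naive replicate 2 on 17 UMIs (2.46 to 7.32), and replicate 1 of both groups had too few marked cells for a value.

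In activated DNT, Il12rb2 was compared between cells with and without Gzmb. Cells with a UMI of Gzmb, the cytotoxic protease granzyme B, had 2.31 and 3.31 times the Il12rb2 of cells without (3.53 and 11.3 CPM with, 1.53 and 3.42 CPM without), although the interval in replicate 1 was 0.877 to 8.62. Thinned to 1500 UMIs, the ratios were 2.76 (0.493 to 27.95) and 2.75 (0.735 to 10.3), with intervals that hold 1. Ifngr1 was at 0.295 and 0.376 times in the Gzmb cells, which were also the deeper ones (median 17675 and 13256 UMIs with, 8094 and 7551 without), and at 0.599 and 0.517 times after thinning. In naive DNT, cells with Il2rb, the IL-2 and IL-15 receptor chain, had Ifngr2 at 0.244 and 0.244 times the level of cells without. Thinned, these Ifngr2 ratios were 0.467 and 0.343.

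**Figure D5:**
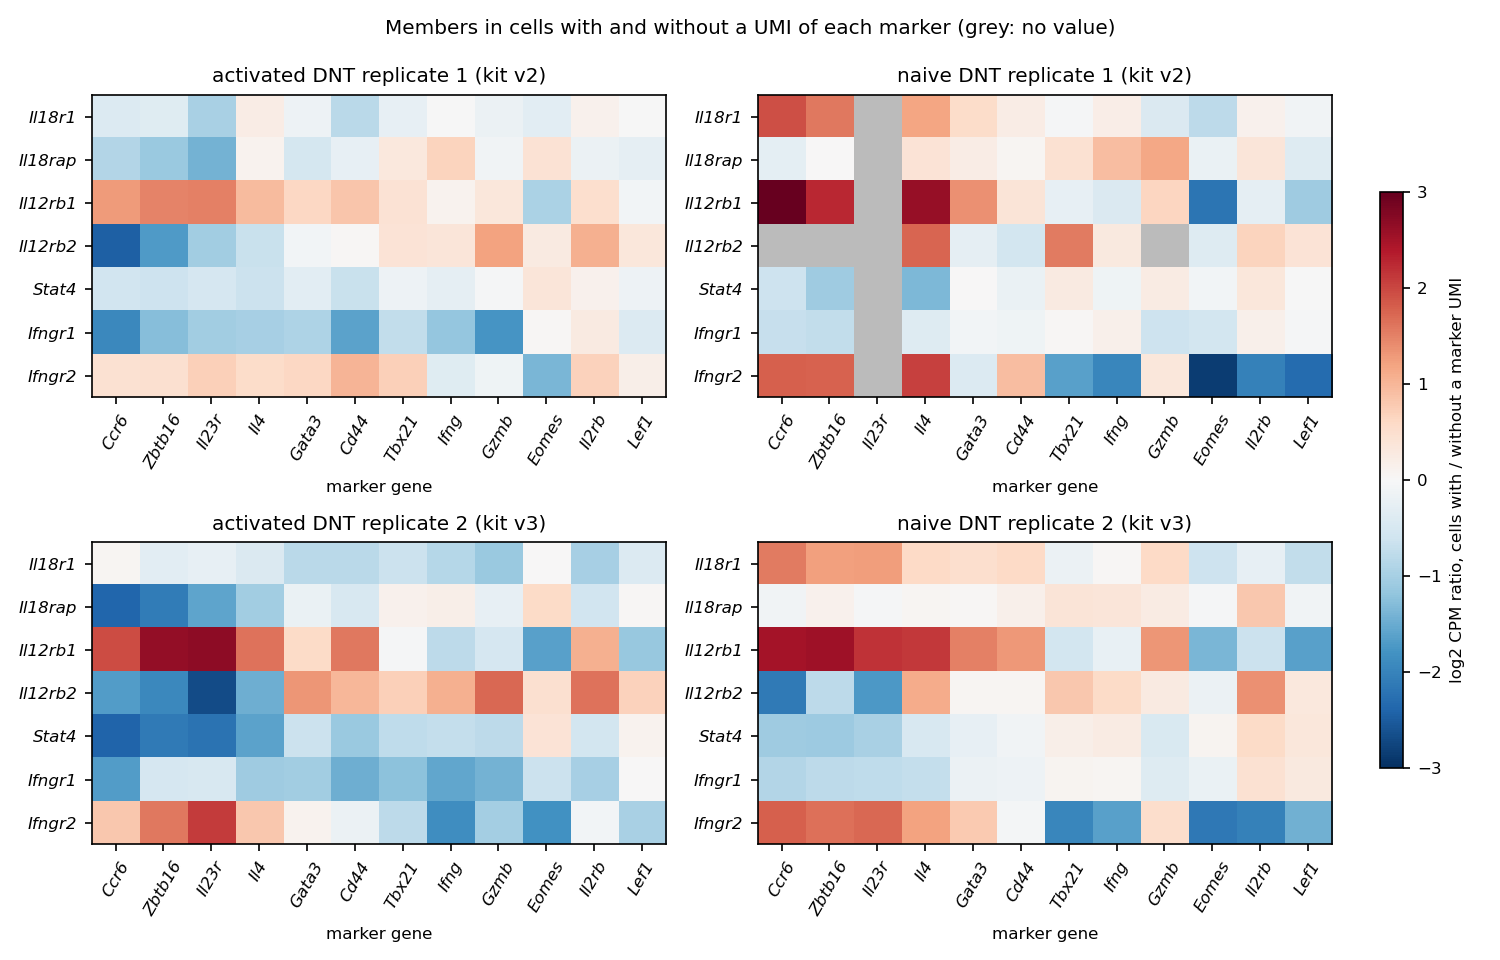
Log2 ratio of CPM in cells with over cells without a UMI of each marker (columns) for each gene (rows), activated DNT left and naive DNT right, kit v2 above and kit v3 below; grey has no value. Il12rb1 is above 0 for Zbtb16 in all 4 libraries (2.82 and 6.23 times in activated DNT, 4.81 and 5.79 times in naive DNT), and Il18r1 in the naive ones.

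The genes whose pattern over the 7 libraries was most like a member's were found by the root mean square difference of log2(CPM + 1), each gene centred on its own mean, among 4469 genes with a mean of at least 20 CPM. Nearest to Il18r1 were Mirt1 (0.34), Cxcr4 (0.35), Sidt1 (0.36), Neurl3 (0.37) and Zfp36 (0.39), where Cxcr4 is a chemokine receptor and Zfp36 an mRNA decay factor of cytokine transcripts. Nearest to Il18rap were Ahnak (0.33), Pde7a (0.35), Il2rb (0.41), Tm6sf1 (0.46) and Tgif1 (0.48). For Il12rb2 the nearest were Ppp2cb (0.17), Erdr1 (0.25), Cdk2ap1 (0.25), D16Ertd472e (0.25) and Phc2 (0.26), which like it were highest in the kit v3 library of activated DNT. The added 1 CPM flattens Il12rb2, at 0.109 to 0.291 CPM in CD4, CD8 and TCRab, where Ppp2cb was at 6.00 to 6.83 CPM. These small differences therefore do not mean equal fold changes. Mirt1, at a lower level than Il18r1, was at 1.72 and 8.33 CPM in activated DNT and 32.1 and 75.8 CPM in naive DNT.

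The other genes of these pathways mostly did not pass the test between activated and naive DNT. The counts below stand against 5.32% higher and 5.06% lower among all genes without the block, and 19.9% and 19.8% with it. Among Janus kinases and STATs other than STAT4, 0 of 10 rose and 0 fell (median log2 fold change −0.36, against −0.05 over all genes). Jak2, which serves both the IL-12 and the interferon gamma receptor, was at 33.1 and 27.4 CPM in activated DNT and 15.9 and 34.9 CPM in naive DNT. With the block 2 of the 10 fell. In the IL-1 receptor family with the neighbours of the locus, 0 of 7 tested rose and 0 fell (median −0.18), and 1 fell with the block. Of the IL-18 and IL-1 signalling genes 1 of 15 rose and 1 fell (median −0.30). Irak1bp1, which binds the kinase IRAK1, rose by 3.28 (adjusted p = 0.0191, edgeR quasi-likelihood test), and Il1b, the inflammatory cytokine IL-1 beta, known from myeloid cells, fell and was at 0 and 0.476 CPM in activated DNT and 7.19 and 8.89 CPM in naive DNT, where myeloid markers summed to 510.6 and 192.2 CPM. Myd88, the adaptor of both receptors, was at 29.2 and 28.1 CPM in activated DNT and 24.7 and 31.2 CPM in naive DNT and did not pass.

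Of 6 tested genes of related IL-12 family receptors and ligands, 0 rose and 2 fell (median −1.21). Il6ra, the IL-6 binding chain, was at 0.728 and 0.674 CPM in activated DNT and 7.48 and 12.3 CPM in naive DNT, and at 48.6 to 80.2 CPM in the other 3 libraries. Il6st, the shared chain gp130, was at 5.59 and 10.4 CPM in activated DNT and 20.5 and 37.8 CPM in naive DNT. Il23r, the partner of Il12rb1 in the IL-23 receptor, was at 3.90 and 16.9 CPM in activated DNT, 0.811 and 7.35 CPM in naive DNT and 0 in CD4, CD8 and TCRab, and its adjusted p was 0.440 without and 0.00945 with the block (edgeR quasi-likelihood test). With the block 2 of the 6 rose and 3 fell.

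The type 1 programme held the most calls, 5 of 16 higher and 2 lower (median 0.23; 6 and 4 with the block). Gzmb was at 2113 and 3372 CPM in activated DNT and 10.7 and 21.7 CPM in naive DNT, and the chemokine genes Ccl4 and Ccl3 were the next by size, at log2 fold changes of 6.64 and 6.37. Ifng itself rose, to 423.1 and 704.0 CPM in activated DNT, against 47.3 and 89.0 CPM in naive DNT, while Ccl5 and Cxcr3 fell. The T-box gene Tbx21 was at 23.3 and 22.0 CPM in activated DNT and 18.8 and 28.7 CPM in naive DNT and did not pass. Of the interferon gamma targets 3 of 23 rose and 0 fell (median −0.24; 6 and 6 with the block, near the share over all genes). Iigp1, a GTPase of cell-autonomous defence, changed by 3.86, the transcription factor gene Irf8 by 3.51 and the feedback inhibitor gene Socs1 by 2.63, and Irf1 was at 27.1 and 71.8 CPM in activated DNT and 79.9 and 199.2 CPM in naive DNT.

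Of 4 tested class II cytokine receptors 0 passed, and 3 fell with the block (median −1.24). Among 9 regulators of interferon gamma and IL-12 signalling 2 rose and 1 fell (median −0.06; 3 and 3 with the block). Twist1, a repressor of the interferon gamma programme, changed by 4.13 at a very low level, 1.78 and 1.03 CPM in activated DNT and 0.116 and 0.0562 CPM in naive DNT. Socs3, an inhibitor of gp130 and IL-12 receptor signalling, changed by −2.24, and Gadd45g, which promotes interferon gamma transcription downstream of IL-12 and IL-18, by 2.24 (adjusted p = 0.0214, edgeR quasi-likelihood test). Gadd45g was at 45.7 and 96.1 CPM in activated DNT and 11.996 and 13.9 CPM in naive DNT.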

How the data were processed

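The authors deposited 1 matrix of UMI counts per library, not normalized, made with Cell Ranger 2.1.0 and 3.0.1 on mm10 (GRCm38), per the submitters' processing notes. The references hold 27998 genes (kit v2) and 31053 genes (kit v3, software 3.0.2 per the file headers), and 27514 shared gene IDs were used. Filters of 200 detected genes and 10% mitochondrial UMIs left 28101 of 28835 barcodes. No doublet caller was run. CPM is relative to the UMIs of shared genes.

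UMIs were summed per library for activated against naive DNT and tested with edgeR 4.0.16 (R 4.3.3, filterByExpr, TMM, robust quasi-likelihood F test) and Benjamini-Hochberg adjustment over all genes tested, at 0.05; the code was tested on simulated counts. DESeq2 1.42.0 was an alternative. The labels call the 2 libraries of a DNT group biological replicates, and 2 against 2 allow no exact permutation p under 0.333. Replicate numbers mark the kit, and same-numbered libraries deviated together (r = 0.617 across 12325 genes, which are not independent replicates), so the number also served as a block. Groups of 1 library have no test. Other values came from pandas 2.3.3, SciPy 1.17.1 and NumPy 2.4.6 under Python 3.11.15, and plots from matplotlib 3.10.9.

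Members and gene lists were chosen with earlier results of these data known. Named are the members, up to 3 called genes per list by absolute fold change, the 5 genes nearest to 3 members, and the markers. Jak2, Myd88, Il23r, Ifng, Ccl5, Cxcr3, Tbx21 and Irf1 were added after their values were seen. The alternative with only Cd3-positive cells and that with 5 CPM and only the kit v2 naive library were added after seeing the data. Results of some markers are not reported here. Sequences are from RefSeq.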

Additional observations from a re-analysis of the deposited data

How the results depend on the processing

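The count of genes called between activated and naive DNT, 1280, was 65 with library totals, 2188 without a filter, 4894 with the replicate block, 270 with cells thinned to 1500 UMIs, 164 without cells with B cell, myeloid or red cell markers, 224 without cells above 3 times the median UMIs, 2390 with DESeq2, and between 548 and 2074 with 1 replicate left out, where the lone library is assumed to vary like the other group. The marker filter removed 54.6% and 46.0% of activated and 14.8% and 25.6% of naive DNT cells. In activated DNT 966 of the 978 and 707 of the 713 cells removed had myeloid list UMIs, where Cst3 gave 158.6 of 163.8 and 158.0 of 164.1 CPM and Lyz2, a defining myeloid gene, was at 0 and 0.793 CPM. Whether the removed cells were myeloid was not tested. Only cells with a Cd3 UMI, an alternative chosen after seeing the data, gave 1271.

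Log2 fold changes no longer past the threshold kept their sign. With library totals Il18r1 was at −3.55, Il18rap at −1.68 and Il12rb1 at 1.87. Without B cell, myeloid or red cell marker cells they were at −2.91, −1.40 and 1.10, and without cells above 3 times the median at −3.30, −1.67 and 1.80. Thinned, Il18rap was at −1.39 and Il12rb1 at 1.65. With 1 replicate left out Il18r1 ranged between −4.24 and −3.24, Il18rap between −2.09 and −1.30, Il12rb1 between 1.59 and 2.11, Ifngr1 between −2.58 and −0.80, Il12rb2 between −0.0029 and 1.39 and Stat4 between −1.23 and 0.02. Ifngr1 passed with the replicate block, at −1.69. Uncalled values that changed sign were Il12rb2 at −0.0029 without activated replicate 2 and −0.18 without the marker cells, and Stat4 at 0.0086 thinned, 0.052 without the marker cells and 0.020 without naive replicate 2. The block changed no other member's call. The cause was not tested.

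By size, 276 genes differed from CD4, 213 from CD8 and 218 from TCRab. With 5 CPM these were 650, 512 and 520, and with 5 CPM and only the kit v2 naive library 858, 667 and 701. With 1 naive replicate left out they ranged between 353 and 2050 for CD4, 280 and 2143 for CD8 and 289 and 1970 for TCRab. Without naive replicate 1, Il18rap and Stat4 also passed as higher in all 3 comparisons.

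Co-detection of Il18r1 with Il18rap, thinned, was at 0 and 5.54 in activated DNT, 0.914 and 1.03 in naive DNT, 16.5 in CD4, 2.80 in CD8 and 0 in TCRab, on 0 to 79 cells. With another depth per cell 89 shares of cells moved past their counting interval and 9 did not, and under other settings 331 ratios between cells with and without a marker moved and 123 did not. Depth limits this pair, and all ratios on fewer than 20 UMIs.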

Other observations

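In the CD4 library, cells with an Il2rb UMI (302 of 5035) had Il12rb1 at 14.1 CPM, against 1.30 CPM in cells without one (10.9 times, 95% counting interval 5.94 to 19.9). Il18rap in these cells was at 7.98 CPM, against 0.748 CPM. The 50 CD4 cells with a Tbx21 UMI, the T-box factor of type 1 cells, had Il18r1 at 88.0 CPM, against 12.2 CPM in the rest (7.21 times, 4.54 to 10.97). The 147 CD4 cells with a Foxp3 UMI, the factor of regulatory T cells, held 9 of the library's 49 Il12rb1 UMIs, 7.43 times the level of the other cells (3.17 to 15.6), and in TCRab the ratio was 7.08 (2.46 to 16.8). After thinning to 1500 UMIs, 0 Il12rb1 UMIs were left in the Foxp3 cells of both libraries and 1 in the Il2rb cells of CD4.

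In the CD8 library, Il18rap was at 8.97 CPM in the 2461 cells with a UMI of Ccl5, a chemokine gene of memory CD8 T cells, against 2.02 CPM in the 2194 cells without (4.45 times, 2.78 to 7.44). In TCRab the ratio for the same split was 5.39 (2.78 to 11.1). Thinned to 1500 UMIs, these Il18rap ratios were 9.30 in CD8 and 10.0 in TCRab. All of these are single libraries without a test, and the splits shown here were picked after their values were seen.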
